A study of Homo sapiens with 15 samples.

Results

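The genes described here are 10 genes of ERK signaling and its negative feedback, called feedback genes below. They are the dual-specificity phosphatases DUSP1, DUSP2, DUSP4, DUSP5 and DUSP6, the membrane adaptors SPRY1, SPRY2, SPRED1 and SPRED2, and the transcription factor EGR1. EGR1 is counted among them as a gene that ERK induces, not as an inhibitor. The 10 genes were chosen by name, with earlier results of these data known. All 10 were found by symbol among the 20468 genes of both expression tables. The kinases RAF, MEK and ERK carry signals of growth factors and cytokines to the nucleus, where ERK switches on early genes such as EGR1. Some early and delayed genes encode inhibitors of the same pathway: the phosphatases remove phosphates from ERK or from its relatives p38 and JNK, and Sprouty and Spred proteins act between the receptors and RAF. Bone marrow stromal cells secrete IL-6 and other factors that can activate this pathway in multiple myeloma (MM) cells.

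RNA-Seq was made of 2 human MM cell lines, MM.1S and RPMI8226, after 48 h in 3 conditions. MM cells grew alone (MONO), in the upper chamber of a transwell over HS5 stromal cells (TSW), or in the lower chamber together with HS5 cells (CO). MM.1S had 3 libraries per condition and RPMI8226 had 2, 15 in all. In the study's methods, 1 well held MM cells in both chambers, so TSW cells also sat over MM cells, and CD90-negative CD38-positive cells were sorted after a trypsin step in cocultures, which cannot be told apart from the condition.

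Expression is given as RPKM, which scales the pair-end tags (PETs) of a gene to its length and to the PETs on all genes of the library. The libraries held between 9008962 and 19050745 PETs on genes. Replicate 1 of MM.1S MONO had the fewest, and it lay farther from its replicates (mean distance 43.8 on the log2 scale) than replicate 2 (34.9) or replicate 3 (35.0). Differences were tested with limma on log2(RPKM + 1), over 10153 genes in MM.1S and 10319 in RPMI8226 whose mean was at least 1 RPKM. Calls of higher or lower required a fold change over 1.5 and a p below 0.05 after Benjamini-Hochberg adjustment. Fold changes on this scale understate the change of low genes, so the ratio of mean RPKM is given beside each called feedback gene. The labels do not say whether replicates were separate cultures, so the p-values measure the spread between these libraries. The lines were normalized separately, and no test was made between them.

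DUSP5 was the most abundant of the 10 genes in every condition of both lines. In MM.1S MONO its mean was 78.6 RPKM (SD 3.56, 3 libraries), followed by DUSP6 at 13.8 (SD 0.898), DUSP4 at 11.6 (SD 1.35) and SPRED2 at 10.1 (SD 2.43), whose ranges overlapped from each gene to the next. In RPMI8226 MONO the order was DUSP5 at 20.8 RPKM (SD 0.749, 2 libraries), DUSP2 at 9.96 (SD 1.04), SPRED2 at 8.20, DUSP6 at 4.80 (SD 0.426) and DUSP1 at 3.94 (SD 0.527), with no overlap between neighbors. SPRY2 was close to absent in both lines, with at most 0.273 RPKM in any library, and was not tested. EGR1 passed the filter only in RPMI8226, through its TSW and CO libraries. This left 8 tested genes in MM.1S and 9 in RPMI8226.

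**Figure D1:**
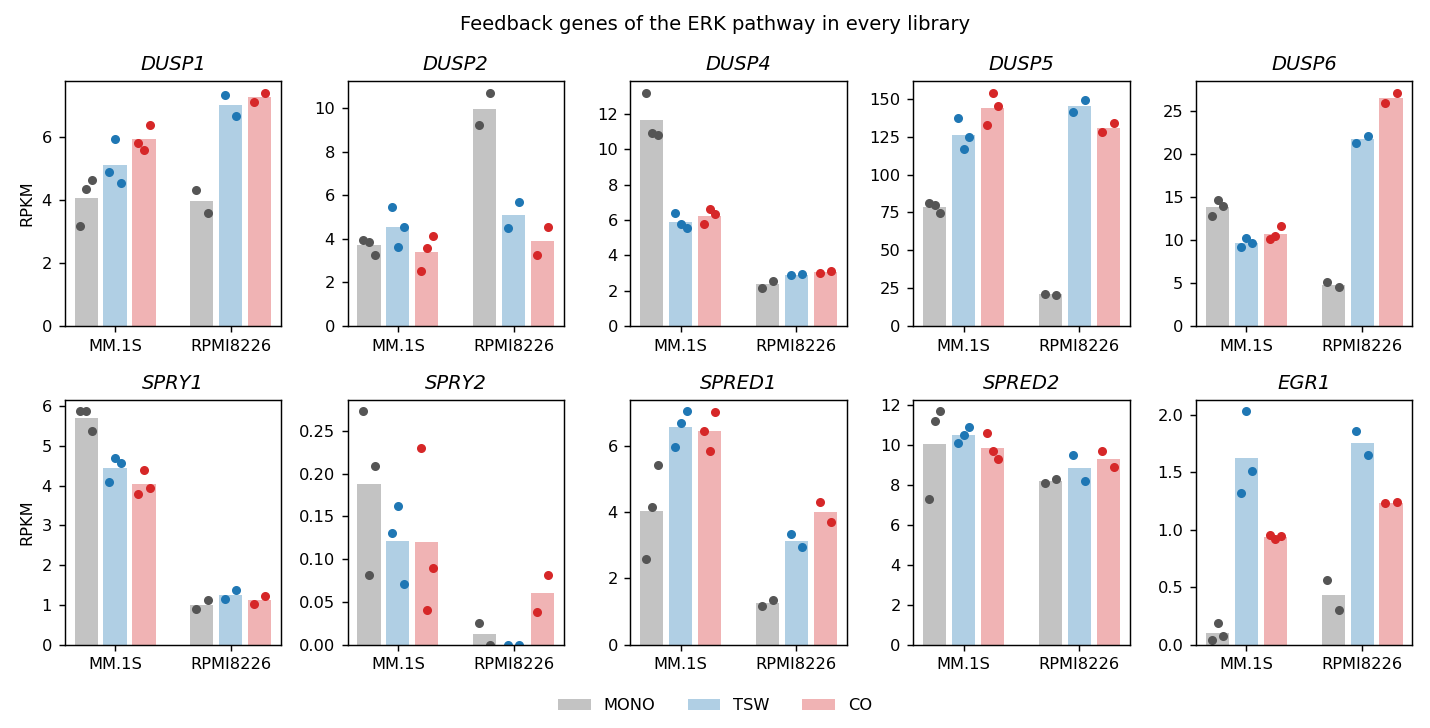
Level of each feedback gene in RPKM (y axis) by condition in both lines; bars are means and points are libraries. DUSP5 stood at 20.8 RPKM in RPMI8226 MONO and at 145 RPKM in TSW.

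EGR1 and DUSP1 are immediate early genes, and the 250 bases before their starts are shown because both were higher in TSW and CO than in MONO of RPMI8226. The sequences are those of RefSeq on GRCh38.p14, read on the strand of the gene, with motif matches in capitals. EGR1 lies on the plus strand (chr5:138465229-138465478) and DUSP1 on the minus strand (chr5:172771196-172771445), and neither window holds an annotated exon.
EGR1: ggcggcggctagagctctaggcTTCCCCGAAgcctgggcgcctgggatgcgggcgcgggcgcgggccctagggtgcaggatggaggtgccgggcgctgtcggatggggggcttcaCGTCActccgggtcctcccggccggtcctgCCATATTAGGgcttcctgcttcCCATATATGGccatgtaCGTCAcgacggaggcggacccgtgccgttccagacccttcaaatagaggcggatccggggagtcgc
DUSP1: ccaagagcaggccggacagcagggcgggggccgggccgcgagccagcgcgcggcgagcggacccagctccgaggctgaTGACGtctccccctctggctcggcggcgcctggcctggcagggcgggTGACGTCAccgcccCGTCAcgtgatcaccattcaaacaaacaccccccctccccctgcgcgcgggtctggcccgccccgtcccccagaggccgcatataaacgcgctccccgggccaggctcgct
The motifs searched on both strands, each with its share of the 35116 promoters in the table, were the CArG box (1.16%), the cyclic AMP response element TGACGTCA (1.65%) and its shorter form TGACG (21.2%). The others were the AP-1 motif TGANTCA (6.57%), the STAT motif TTCNNNGAA (6.57%) and the ETS motif CCGGAA (14.5%). EGR1 held CArG boxes at 105 and 83 bases before the start, TGACG at 135 and 66 bases, and a STAT motif at 228 bases. DUSP1 held TGACGTCA at 125 bases and TGACG at 172, 125, 122 and 111 bases, of which those at 125 and 122 lie inside TGACGTCA. Of the 2 promoters of SPRY1, 1 held a STAT motif at 188 bases and an ETS motif at 67, and of the 3 promoters of SPRY2, 1 held TGACG at 190 bases and an ETS motif at 142; the others held none. DUSP2, DUSP6, SPRED1 and SPRED2 held none of the motifs, and the table has no promoter of DUSP4 or DUSP5. A match is a description of letters, and binding was not measured.

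In MM.1S, the phosphatase DUSP5 rose and the phosphatase DUSP4 fell in both TSW and CO against MONO. The adaptor SPRED1 was called higher in both, a call that ended when single libraries were left out, and DUSP1, DUSP2, DUSP6, SPRY1 and SPRED2 were not called. EGR1 was almost absent in MONO and detectable in every TSW and CO library, although below the filter. In TSW against MONO, 2 of the 8 tested genes were called higher, where 6.48% of all tested genes were, and 1 was called lower, where 4.16% were. In CO against MONO, 2 were called higher (7.13% of all tested genes) and 1 lower (4.65%). Without MONO replicate 1, where SPRED1 had 0.39 in TSW and 0.37 in CO, 1 gene was called higher in each. The median log2 fold change of the 8 genes was 0.15 in TSW and -0.06 in CO, beside 0.01 over all genes in both. Both comparisons share the MONO libraries, so their values are given side by side.

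DUSP5, a nuclear phosphatase that acts on ERK, was at 81.2, 80.0 and 74.5 RPKM in the MONO libraries of MM.1S, at 137, 117 and 125 RPKM in TSW, and at 133, 154 and 145 RPKM in CO. Every TSW and CO library was above every MONO library, and TSW and CO overlapped. Mean RPKM was 1.61 times that of MONO in TSW and 1.83 times in CO. The log2 fold change was 0.67 in TSW (95% confidence interval 0.46 to 0.89, limma adjusted p = 5.10e-04) and 0.86 in CO (0.65 to 1.07, adjusted p = 9.48e-05). DUSP5 has a pseudogene in the tables, DUSP5P1, with at most 1 PET in any MM.1S library and 26 to 35 PETs in the RPMI8226 libraries.

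DUSP4, another nuclear phosphatase, with ERK, p38 and JNK among its targets, went the other way. It was at 13.2, 10.9 and 10.8 RPKM in MONO, at 6.37, 5.77 and 5.52 RPKM in TSW, and at 5.76, 6.60 and 6.34 RPKM in CO. All MONO libraries were above all others, at 1.98 times the mean of TSW and 1.87 times that of CO, and TSW and CO overlapped. The log2 fold change of DUSP4 was -0.87 in TSW (-1.11 to -0.64, adjusted p = 1.80e-04) and -0.80 in CO (-1.04 to -0.57, adjusted p = 3.15e-04). DUSP6, the cytoplasmic phosphatase of ERK, was at 12.8, 14.6 and 13.9 RPKM in MONO, at 9.19, 10.2 and 9.65 RPKM in TSW, and at 10.1, 10.4 and 11.6 RPKM in CO. Its MONO libraries also stood above all others, but its log2 fold changes of -0.47 in TSW (adjusted p = 0.00442) and -0.33 in CO (adjusted p = 0.0211) were under the fold change threshold. The exons of DUSP6 overlap an unnamed gene on the opposite strand, and the strand used in counting is not stated, so tags of the 2 genes cannot be told apart.

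DUSP1 and DUSP2, phosphatases of the nucleus that respond early to stimulation, were not called in MM.1S. DUSP1 had a log2 fold change of 0.28 in TSW (adjusted p = 0.137) and 0.46 in CO (adjusted p = 0.0227), where its libraries at 5.80, 5.57 and 6.36 RPKM were all above MONO at 3.18, 4.33 and 4.62 RPKM. DUSP2 had 0.23 in TSW (adjusted p = 0.308) and -0.11 in CO (adjusted p = 0.633), and its conditions overlapped.

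Among the adaptors, SPRED1 was at 2.58, 4.15 and 5.43 RPKM in MONO of MM.1S, at 5.97, 6.69 and 7.06 RPKM in TSW, and at 6.47, 5.85 and 7.04 RPKM in CO. All TSW and CO libraries were above MONO, whose replicate 1 was the lowest, and mean RPKM was 1.62 times that of MONO in TSW and 1.59 times in CO. The log2 fold change of SPRED1 was 0.62 in TSW (0.23 to 1.02, adjusted p = 0.0260) and 0.60 in CO (0.20 to 0.99, adjusted p = 0.0278). Without MONO replicate 1 these were 0.39 and 0.37, both under the fold change threshold. Without TSW replicate 1, 2 or 3, the log2 fold change in TSW was 0.68, 0.61 and 0.58, and the call ended by its adjusted p (0.0503, 0.0795 and 0.0906), without replicate 3 also by the fold change threshold. Without CO replicate 1 or 3, the log2 fold change in CO was 0.60 and 0.54 (adjusted p = 0.0812 and 0.0986), without replicate 3 again past neither threshold. The calls ended as well under quantile normalization (0.54 and 0.51), with only the 2 compared conditions in the fit, with no filter (adjusted p = 0.0611 and 0.0589), under a correction for GC content and length chosen after seeing the data (0.36 and 0.23), and in CO under median-of-ratios scaling (0.58). Over all alternatives the adjusted p of SPRED1 ranged from 0.00380 to 0.0906 in TSW and from 0.00394 to 0.0986 in CO.

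SPRY1 was at 5.87, 5.87 and 5.38 RPKM in MONO, at 4.10, 4.69 and 4.56 RPKM in TSW, and at 3.79, 4.40 and 3.95 RPKM in CO. Its MONO libraries were above all others, but the log2 fold changes of -0.30 in TSW (adjusted p = 0.0388) and -0.41 in CO (adjusted p = 0.00880) stayed under the fold change threshold. SPRED2 had a log2 fold change of 0.08 in TSW (adjusted p = 0.725) and -0.01 in CO (adjusted p = 0.982), with overlapping conditions.

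EGR1 was counted with 1, 11 and 3 PETs in the MONO libraries of MM.1S, with 59, 97 and 62 in TSW, and with 48, 44 and 41 in CO. No TSW or CO library overlapped MONO, and every CO library was below every TSW library. Against a mean of 0.0972 RPKM in MONO, TSW had 1.62 and CO 0.937. With no expression filter, where the gene enters the test, limma gave EGR1 a log2 fold change of 1.25 in TSW (adjusted p = 1.01e-04) and 0.82 in CO (adjusted p = 6.55e-04). The rate of EGR1 tags per library total was 14.1 times that of MONO in TSW (95% Poisson interval of counting alone, 8.36 to 25.6) and 8.09 times in CO (4.73 to 14.9).

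In RPMI8226, DUSP5 and DUSP6, both phosphatases of ERK, had the largest log2 fold changes with HS5 cells. SPRED1, EGR1 and DUSP1 rose too, DUSP2 fell, and DUSP4, SPRY1 and SPRED2 were not called. The same 6 genes were called in TSW and in CO against MONO. In TSW, 5 of the 9 tested genes were called higher, where 14.5% of all tested genes were, and 1 lower, where 17.9% were. In CO, 5 were called higher (16.4% of all tested genes) and 1 lower (22.9%). EGR1 entered the test through the libraries in which it was higher, and without it 4 of 8 were called higher in each comparison. The median log2 fold change of the 9 genes was 0.69 in TSW and 0.65 in CO (0.46 and 0.51 without EGR1), beside -0.08 and -0.09 over all genes. Under median-of-ratios scaling the split of all called genes turned, from 1500 higher and 1852 lower to 1712 and 1530 in TSW, and from 1693 and 2363 to 1997 and 1917 in CO, with the same 6 feedback genes called.

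DUSP5 was at 21.4 and 20.3 RPKM in the MONO libraries of RPMI8226, at 141 and 149 RPKM in TSW, and at 128 and 134 RPKM in CO. All TSW and CO libraries were far above MONO, at 6.96 times its mean in TSW and 6.30 times in CO. The log2 fold change of DUSP5 was 2.74 in TSW (2.59 to 2.89, adjusted p = 6.92e-10) and 2.60 in CO (2.45 to 2.75, adjusted p = 7.76e-10). DUSP6 was at 5.10 and 4.50 RPKM in MONO, at 21.3 and 22.1 RPKM in TSW, and at 25.9 and 27.1 RPKM in CO. No condition of DUSP6 overlapped another, and its mean was 4.52 times that of MONO in TSW and 5.52 times in CO. The log2 fold change of DUSP6 was 1.97 in TSW (1.78 to 2.16, adjusted p = 2.55e-08) and 2.25 in CO (2.06 to 2.43, adjusted p = 7.98e-09).

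DUSP1 was at 4.32 and 3.57 RPKM in MONO of RPMI8226, at 7.33 and 6.64 RPKM in TSW, and at 7.09 and 7.39 RPKM in CO, with MONO below all others, by ratios of 1.77 for TSW and 1.84 for CO. Its log2 fold change was 0.69 in TSW (0.47 to 0.92, adjusted p = 1.66e-04) and 0.74 in CO (0.51 to 0.97, adjusted p = 8.47e-05). DUSP2 was at 9.23 and 10.7 RPKM in MONO, at 4.51 and 5.69 RPKM in TSW, and at 3.27 and 4.52 RPKM in CO. MONO was above all other libraries of DUSP2, at 1.95 times the mean of TSW and 2.56 times that of CO. Its log2 fold change was -0.85 in TSW (-1.16 to -0.54, adjusted p = 3.65e-04) and -1.17 in CO (-1.48 to -0.86, adjusted p = 2.84e-05). DUSP4, which fell in MM.1S, was at 2.16 and 2.55 RPKM in MONO, at 2.86 and 2.93 RPKM in TSW, and at 3.01 and 3.14 RPKM in CO. Its MONO libraries were the lowest, but neither 0.22 in TSW (adjusted p = 0.0810) nor 0.28 in CO (adjusted p = 0.0282) passed the fold change threshold.

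SPRED1 was at 1.17 and 1.35 RPKM in MONO of RPMI8226, at 3.34 and 2.94 RPKM in TSW, and at 4.31 and 3.70 RPKM in CO. No condition overlapped another, and mean RPKM was 2.50 times that of MONO in TSW and 3.19 times in CO. Its log2 fold change was 0.88 in TSW (0.63 to 1.12, adjusted p = 4.91e-05) and 1.15 in CO (0.91 to 1.39, adjusted p = 4.99e-06). SPRY1 had 0.17 in TSW (adjusted p = 0.218) and 0.08 in CO (adjusted p = 0.560), at means of 1.01 RPKM in MONO, 1.25 in TSW and 1.12 in CO. SPRED2 had 0.09 in TSW (adjusted p = 0.399) and 0.17 in CO (adjusted p = 0.141). For SPRY2, 1 and 0 PETs were counted in MONO, 0 and 0 in TSW, and 2 and 5 in CO.

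EGR1 was at 0.562 and 0.302 RPKM in MONO of RPMI8226, at 1.86 and 1.65 RPKM in TSW, and at 1.23 and 1.24 RPKM in CO. No condition overlapped another, and mean RPKM was 4.07 times that of MONO in TSW and 2.86 times in CO. The log2 fold change of EGR1 was 0.95 in TSW (0.69 to 1.21, adjusted p = 4.96e-05) and 0.65 in CO (0.38 to 0.91, adjusted p = 5.98e-04). Without MONO replicate 2 the value in CO was 0.52 (adjusted p = 0.00614), under the fold change threshold, and without TSW replicate 1 the gene fell below the filter.

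**Figure D2:**
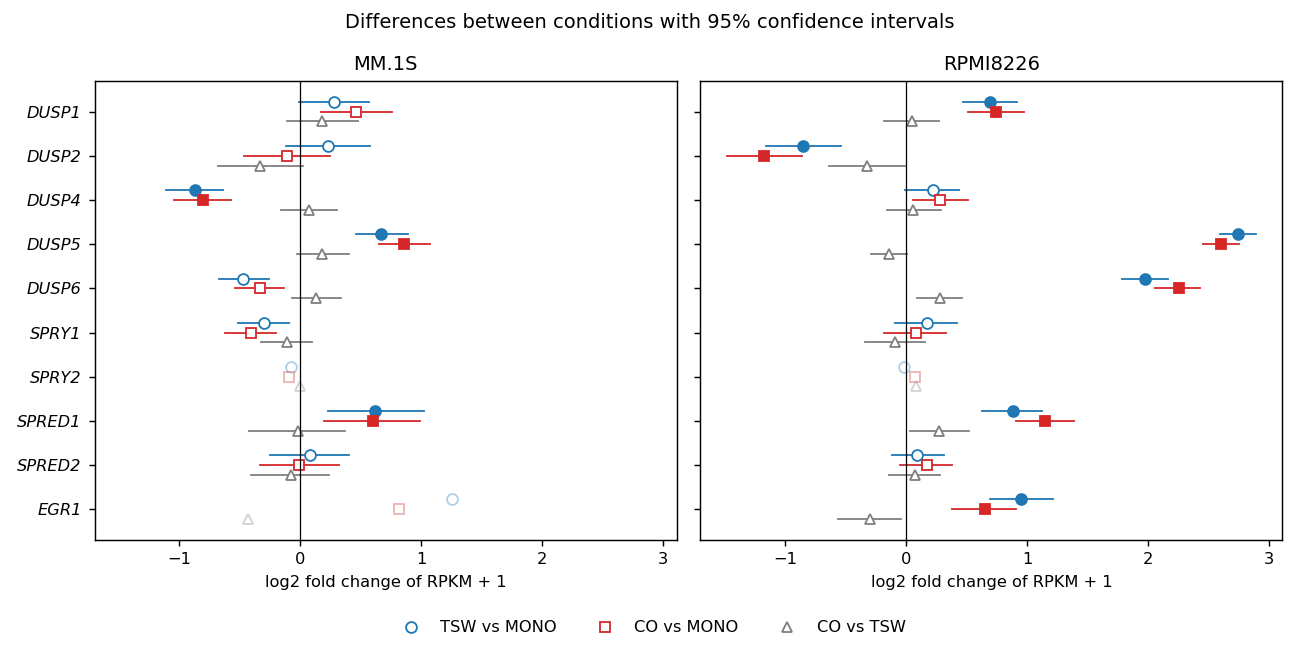
Log2 fold change (x axis) of each feedback gene in the 3 comparisons of each line, with 95% confidence intervals; filled points were called, open points were not, and pale points without interval were not tested. DUSP5 reached 2.74 in TSW against MONO of RPMI8226, and DUSP4 was at -0.87 in MM.1S.

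No feedback gene was called between CO and TSW in either line, and few of all tested genes were. CO differed from TSW by stromal RNA as well as by contact, so contact alone was not tested. Comparing CO with TSW, limma called 0 of the 8 tested genes in MM.1S higher, where 0.374% of all tested genes were, and 0 lower, where 0.0394% were. In RPMI8226 it called 0 of 9 higher (1.90% of all tested genes) and 0 lower (2.39%). At an unadjusted p under 0.05 there were 0 genes in MM.1S and 4 in RPMI8226, and voom on the recovered PETs called 0 in both lines. Of all tested genes, 0.433% in MM.1S and 27.6% in RPMI8226 were under 0.05 even after adjustment. The median log2 fold change was 0.02 in MM.1S (0.00 over all genes) and 0.05 in RPMI8226 (-0.04 over all genes). In RPMI8226 the split of all called genes turned with the scaling, from 196 higher and 247 lower to 249 and 173 after quantile normalization and to 155 and 102 after the correction for GC content and length.

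In MM.1S, the log2 fold changes of CO against TSW lay between -0.33 for DUSP2 and 0.18 for DUSP1 and DUSP5. EGR1, below the filter, had -0.43, with an adjusted p of 0.0890 when no filter was used. In RPMI8226, DUSP6 had 0.28 (0.09 to 0.46, adjusted p = 0.0340), under the fold change threshold. The other genes there at an unadjusted p under 0.05 were DUSP2 at -0.32 (adjusted p = 0.113, and values of -0.51 to -0.14 with a library left out and -0.39 to -0.09 under the other alternatives), EGR1 at -0.30 (adjusted p = 0.0842, and values of -0.50 to -0.18) and SPRED1 at 0.27 (adjusted p = 0.0883), which turned to -0.02 under the GC and length correction (adjusted p = 0.932, with 0.0354 to 0.932 over all alternatives). DUSP5 had -0.14 (adjusted p = 0.143), and EGR1 was lower in CO than in TSW in every library of both lines.

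The CO libraries carried RNA of stromal genes. The study's methods reported minimal HS5 cells among the MM cells sorted from the lower chamber, and left stromal signature genes out of its analyses. No such exclusion was made here. Of 37 stromal markers, 21 were tested in MM.1S, and 15 were called higher and 1 lower in CO against MONO (median log2 fold change 2.27). In RPMI8226, 11 of 16 were called higher and 3 lower (median 1.63), with 5 higher without CO replicate 2 and 7 without CO replicate 1. Against TSW, CO had 16 higher in MM.1S (median 2.40) and 9 in RPMI8226 (median 1.78), or 4 there without CO replicate 2. These counts rest on genes that passed the filter through CO: only 7 of the 21 tested markers in MM.1S and 7 of the 16 in RPMI8226 were at a mean of 1 RPKM or more in MONO. Of those 7, 1 was higher and 1 lower in CO against MONO of MM.1S (median -0.01), and 2 were higher and 3 lower in RPMI8226 (median -0.48). Both lines alone also express part of the list: 7 or 8 of the 37 genes were at 1 RPKM or more in each MONO and TSW library. Without FN1, which RPMI8226 itself expresses at 1678 to 4310 RPKM, the remaining 36 genes summed to 189 to 224 RPKM in MM.1S CO and to 55.7 to 85.7 RPKM in the other MM.1S libraries. In RPMI8226 the sums were 170 and 217 RPKM in CO and 68.2 to 102 RPKM in the others. MMP1 was the most abundant in every MM.1S CO library, at 41.0 to 46.9 RPKM.

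The collagen genes COL1A2 and COL3A1 had no PET in any MONO or TSW library, and COL1A2 was at 10.8, 13.4 and 10.2 RPKM in MM.1S CO and at 4.05 and 5.85 RPKM in RPMI8226 CO. THY1 encodes the CD90 used in the sort. It was at 0.570, 0.489 and 0.453 RPKM in MM.1S CO and at 0, 0.0219 and 0.0629 RPKM in MM.1S MONO. In RPMI8226, THY1 was at 0.0767 and 0.111 RPKM in CO (3 and 5 PETs). In MONO of that line it was at 0.0669 and 0.0282 RPKM (2 and 1 PETs). In TSW against MONO the list had 0 higher and 2 lower in MM.1S. In RPMI8226, 0 of the 7 markers at a mean of 1 RPKM or more in MONO were higher and 4 lower (median -0.66). Over all 16 markers tested in RPMI8226, 4 were lower and 1 was higher (median 0.00). The higher gene was LOX, at 0.236 RPKM in MONO of RPMI8226. With a library left out, 0 to 2 were higher there. What part stromal RNA has in the CO values of DUSP5 and the other feedback genes, or of IL6 and IER3 described later, was not tested.

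**Figure D3:**
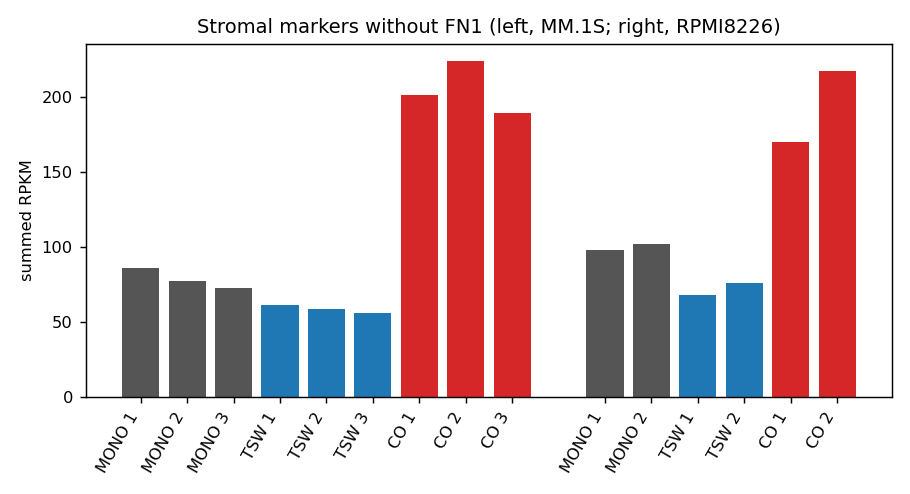
Summed RPKM (y axis) of 36 stromal markers without FN1 in each library, by condition and line. MM.1S CO libraries reached 189 to 224 RPKM, and MM.1S TSW libraries 55.7 to 61.5 RPKM.

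Some genes induced by ERK and growth factors rose in both lines, among them JUNB and FOS, which encode AP-1 subunits. Of 30 such genes, 18 were tested in MM.1S, and 8 were called higher and 1 lower both in TSW (median log2 fold change 0.24) and in CO (0.30). FOS, IER2 and ETV4 passed the filter through TSW and CO, and without them 5 of 15 were higher and 1 lower in each (medians -0.04 and 0.11). Of all genes tested in MM.1S, 6.48% were called higher and 4.16% lower in TSW, and 7.13% and 4.65% in CO. The counts of the other lists in MM.1S stand beside the same shares. JUNB was at means of 15.9 RPKM in MONO, 80.6 in TSW and 73.9 in CO, with log2 fold changes of 2.28 (limma adjusted p = 6.89e-08) and 2.15 (adjusted p = 5.16e-08). FOS, at 0.178 RPKM in MONO, 4.50 in TSW and 3.42 in CO, had 2.21 and 1.89, and ETV5 had 2.10 and 1.89. ATF3 had 1.35 in TSW, IER2 had 1.05 in CO, and KLF2 fell, with -1.38 and -1.85.

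In RPMI8226, 12 of 19 tested response genes were called higher and 2 lower in each comparison (11 and 2 of them the same genes), with medians of 0.99 in TSW and 1.02 in CO. Without FOS, which was under 1 RPKM in MONO, 11 of 18 were higher in each, at medians of 0.90 and 0.88. Of all genes tested in RPMI8226, 14.5% were called higher and 17.9% lower in TSW, and 16.4% and 22.9% in CO. The counts of the other lists in RPMI8226 stand beside the same shares. JUNB was at 23.3 RPKM in MONO, 184 in TSW and 185 in CO (log2 fold changes 2.93 and 2.94), and MCL1 at 67.0, 377 and 494 RPKM (2.47 and 2.86). ATF3 had 1.97 and 1.80, ZFP36 had 1.92 and 1.80, FOS had 1.92 in TSW and PHLDA1 had 1.89 in CO. The 2 lower genes were MYC (-1.27 and -1.53) and CCND1 (-1.54 and -1.46), and MYC was not called in MM.1S (-0.05 and -0.01). Between CO and TSW, limma called 0 of these genes in either line, with 2 in MM.1S and 12 in RPMI8226 at an unadjusted p under 0.05 (voom: 0, and 1 lower). The 2 most abundant there were MYC (0.04) and BTG2 (0.08) in MM.1S and MCL1 (0.39) and MYC (-0.26) in RPMI8226.

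**Figure D4:**
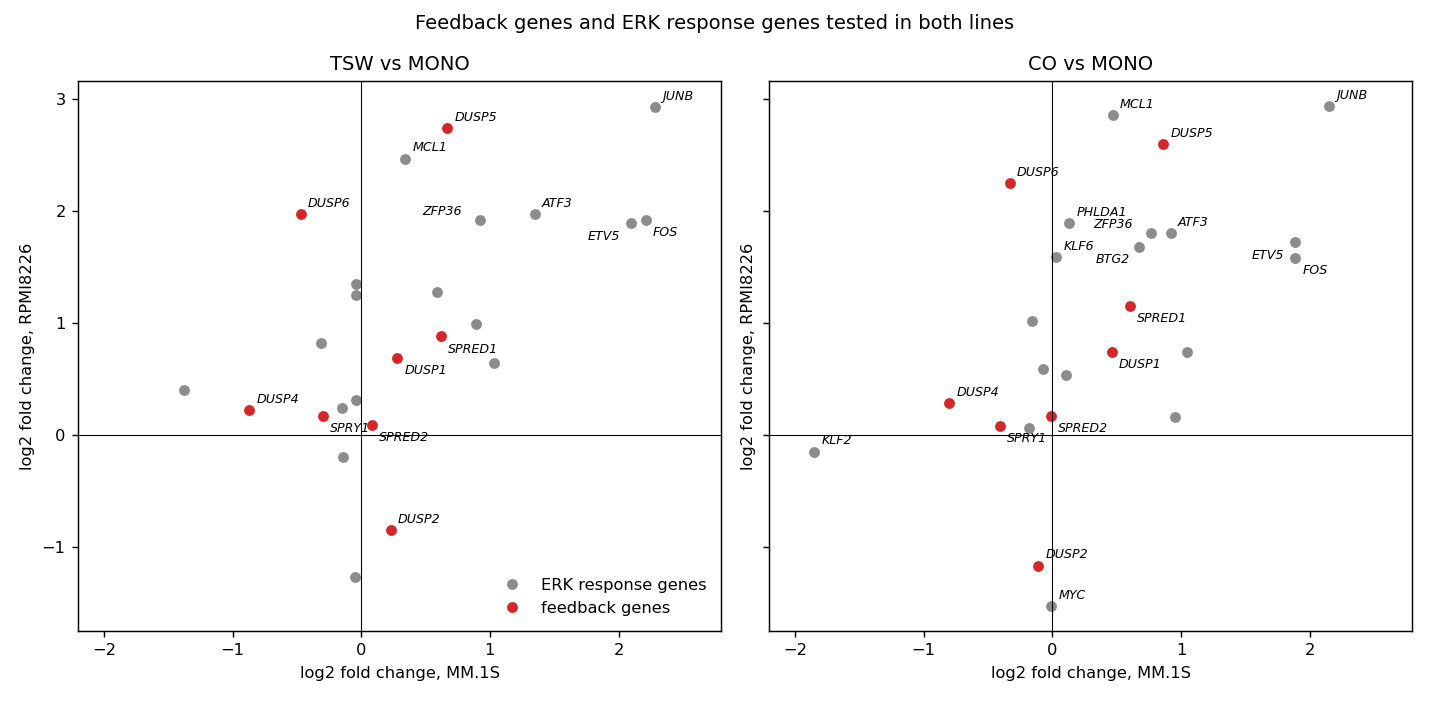
Log2 fold change against MONO in MM.1S (x axis) and RPMI8226 (y axis) for TSW and for CO; red points are feedback genes and grey points ERK response genes. DUSP6 is at -0.47 and 1.97 in TSW, and DUSP5 at 0.67 and 2.74.

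The list of MAPK activity score genes includes DUSP4 and DUSP6. Of 10 genes, 5 were tested in MM.1S, with ETV5 and ETV4 (1.03 in TSW, 0.95 in CO, under 1 RPKM in MONO) higher and DUSP4 lower, at medians of -0.04 and 0.13 (-0.25 and -0.10 without ETV4). In RPMI8226, 7 were tested, with 4 higher and 1 lower in TSW (median 0.64) and 3 higher and 1 lower in CO (median 0.28). SPRY4 passed the filter there through TSW and CO, and without it the median was 0.99 in TSW and not lower in CO. DUSP6, ETV5 (1.89 and 1.72) and PHLDA1 (1.35 and 1.89) were higher and CCND1 lower in both, and ETV4 was higher in TSW (0.64, and 0.54 without TSW replicate 2). Between CO and TSW, limma and voom called 0 genes of this list (medians 0.07 and 0.06), with 0 and 3 at an unadjusted p under 0.05, and limma called 1 higher in RPMI8226 without CO replicate 1.

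Among other negative regulators of the pathway, IER3 was called higher in CO of both lines and in TSW of neither (0.47 and 0.29, adjusted p = 0.157 and 0.0590). Stromal markers such as COL1A2 were also higher in CO and not in TSW, and the source of the IER3 tags cannot be told apart. Of 18 genes, 12 were tested in MM.1S: the RAS-inactivating proteins RASA2 (0.70) and NF1 (0.63) were called higher in TSW, and IER3 (1.62), NF1 (0.64) and RASA2 (0.64) in CO. Without MONO replicate 1, RASA2 had 0.47 in TSW and 0.41 in CO and NF1 had 0.37 and 0.38, so that of these only IER3 stayed called. In RPMI8226, 13 were tested: DUSP7 (-1.57), PEBP1 (-0.62) and DUSP3 (-0.60) were called lower in TSW, and of these only DUSP7 was without TSW replicate 1 (PEBP1 -0.55, DUSP3 -0.53). In CO, IER3 (1.80), DUSP16 (0.66) and RASA1 (0.61, and 0.52 without CO replicate 2) were higher and DUSP7 (-1.77) and PEBP1 (-0.86) lower. The medians were 0.25 and 0.23 in MM.1S and 0.02 and 0.15 in RPMI8226. Only IER3 was called between CO and TSW, in RPMI8226 (1.51, at 6.23 and 1.53 RPKM), with medians of 0.00 and 0.06. In MM.1S, IER3 had 1.15 between CO and TSW (0.64 to 1.66, limma adjusted p = 0.0854). Without MONO replicate 1 or 3 of MM.1S, 1 gene of the list was called higher in CO than in TSW.

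Among components of the cascade itself, the kinase gene RPS6KA2 was called higher in both lines. Of 30 genes, 27 were tested in MM.1S, and 2 were called higher and 1 lower in TSW (median 0.26) and in CO (median 0.27). RPS6KA2 had 1.21 and 0.94 and RASGRP3 -1.16 and -1.05, and PTPN11 had 0.71 and 0.70, or 0.42 and 0.41 without MONO replicate 1. Without MONO replicate 3, 6 genes were called higher in CO. In RPMI8226, 25 were tested, with 4 higher and 1 lower in TSW (median 0.20) and 7 higher and 2 lower in CO (median 0.29). Of all genes tested there, 14.5% were higher and 17.9% lower in TSW, and 16.4% and 22.9% in CO. HRAS had -1.21 and -1.61, RPS6KA2 1.15 and 1.12, RRAS 0.97 and 1.07 and SOS2 0.77 and 1.27, with GRB2 at 0.85 in TSW and SHOC2 at 0.81 in CO. Between CO and TSW limma and voom called 0 in both lines, with 0 and 11 at an unadjusted p under 0.05 and medians of 0.01 and 0.03. Without TSW replicate 1 of RPMI8226, 3 were called higher and 1 lower.

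Among growth factor genes, HBEGF, which encodes a ligand of the EGF receptor, and VEGFA were called higher in TSW and CO of both lines. Of 12 ligands, 6 were tested in MM.1S, with 3 higher in TSW (median 0.61) and 4 in CO (median 0.70). HBEGF had 1.66 and 1.43, VEGFA 0.93 and 0.95 and AREG 0.83 and 0.75, and FGF2 had 0.66 in CO. The AREG call ended without MONO replicate 2, among others, in TSW (0.68, adjusted p = 0.0522) and in CO (0.60, adjusted p = 0.0723). In RPMI8226, 5 were tested, with HBEGF (2.50 and 2.48) and VEGFA (0.71 and 0.78) higher in both comparisons and IL6 in CO alone (2.88), at medians of 0.00 and 0.78. IL6 and HBEGF were under 1 RPKM in MONO there, and without them 1 of 3 ligands was higher in each (medians -0.39 and -0.35). IL6 was at 6.34 RPKM in CO of RPMI8226 with no PET in MONO or TSW, and at 2.63 RPKM in CO of MM.1S, 0.0412 in MONO and 0.0110 in TSW, where it was below the filter. In RPMI8226 COL1A2 also had PETs in CO only, and IL6 cannot be assigned to the MM cells from these values. Between CO and TSW, IL6 was the only ligand called by limma (2.88 in RPMI8226), voom called 1 higher in each line, and the medians were -0.01 and 0.03.

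Of 17 receptors, 4 were tested in MM.1S and 0 called in any comparison. In TSW the median was 0.26, with 2 at an unadjusted p under 0.05 and 1 called higher by voom. In CO it was 0.16 (1 and 0), and in CO against TSW it was -0.05 (1 and 0). With a library of MM.1S left out, 0 to 1 were called in each direction in TSW and in CO, and 0 in CO against TSW. In RPMI8226, 7 were tested, with CSF1R, at 0.124 RPKM in MONO, higher (1.35 and 1.63) and INSR lower (-0.67 and -0.65) in TSW and CO (medians -0.10 and -0.03) and 0 called between them (median 0.07). Without CSF1R and ERBB2, which passed the filter through TSW and CO, 0 of 5 were higher and 1 lower (medians -0.13 and -0.44). The serum response factor and its ternary complex partners, 4 genes, had 0 calls in MM.1S (medians -0.18, -0.14 and 0.04) and in TSW of RPMI8226 (median 0.03). In CO of RPMI8226, ELK3 was higher (0.80) and ELK1 lower (-0.70; median 0.11), with 0 calls against TSW (median 0.08). Of 8 genes of p38 and JNK, 0 were called in MM.1S (medians 0.04, 0.04 and -0.06), and in RPMI8226 only MAPK11 was, in TSW (0.72; medians -0.21, -0.18 and -0.04). For both of these lists, between 0 and 5 genes were at an unadjusted p under 0.05 in each comparison, voom called at most 1 in a direction, and leaving out a library moved no count by more than 1.

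The 8 heat shock genes were included because cell handling can induce them together with DUSP1 and EGR1. In MM.1S, HSPA1A, at 0.659 RPKM in MONO, was higher (0.59 and 0.78, with 0.48 in TSW without TSW replicate 1) and HSPA8 lower (-0.87 and -0.81) in TSW and CO, with medians of -0.23 and -0.21. In RPMI8226, 0 were higher and 6 lower in TSW (median -0.96) and in CO (median -0.79), with HSPE1 at -2.21 and -1.58 and HSPH1 at -1.75 and -2.02. Between CO and TSW, 0 were called in MM.1S (median 0.07, 0 at an unadjusted p under 0.05, voom 0). HSPA1B (0.66, and 0.53 without TSW replicate 1) and HSPE1 (0.63, and 0.53 without CO replicate 2) were higher in RPMI8226 (median 0.00).

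Markers of plasma cells were in place in both lines: 10 of 10 were at 1 RPKM or more in every MM.1S library and 9 of 10 in every RPMI8226 library. In MM.1S, 3 of them were called higher and 2 lower in TSW against MONO (median -0.07). In CO against MONO, 2 were higher and 2 lower (median 0.05). Without MONO replicate 1, PRDM1 had 0.53 in CO in place of 0.68, and 1 gene was called higher. In RPMI8226, 6 were higher and 2 lower in both comparisons (medians 0.94 and 1.01). CD38, on which the cells were sorted, was at 16.0 RPKM in MONO of RPMI8226, 45.8 in TSW and 53.0 in CO (1.46 and 1.67). In MM.1S, CD38 was not called (-0.13 and 0.13). TNFRSF17 fell most, with -1.80 and -2.14 in MM.1S and -3.50 and -3.83 in RPMI8226, and 0 were called in CO against TSW (medians -0.13 and -0.07, 4 and 7 at an unadjusted p under 0.05, voom 0). Of 6 markers of other blood and vessel cells, 0 reached the filter in either line.

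Over the 15 libraries, after centering each line, the 8 feedback genes with a mean of at least 1 RPKM in both lines were set beside 9397 genes by Pearson correlation of log2(RPKM + 1), as a description with no test. The genes most like DUSP5 were ELF3 (r = 0.995), IRF1 (0.993) and MVP (0.992), and those most like DUSP6 were IL21R (0.993), OPTN (0.989) and IL2RG (0.986). DUSP1 was most like COG6 (0.965), ASB7 (0.955) and KDM4C (0.952), and DUSP2 most like GOT2 (0.938), AHCY (0.937) and STOML2 (0.936). For DUSP4 they were KIAA0930 (0.972), ST3GAL1 (0.971) and MXD4 (0.968), and for SPRY1 TOM1 (0.930), LRPAP1 (0.930) and SLC35C1 (0.927). For SPRED1 they were TNKS (0.984), SCARB2 (0.981) and ITGAV (0.981), and for SPRED2 ARFGEF1 (0.946), SP3 (0.916) and ANO6 (0.903). Among the feedback genes themselves, the lowest correlations were those of DUSP2 with DUSP6 (-0.834) and with DUSP5 (-0.724).

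DUSP5 was thus the feedback gene that rose in TSW and CO of both lines and did not depend on a single library. SPRED1 was called higher in both lines too. In MM.1S its call ended when single MONO, TSW or CO libraries were left out, and under several other alternatives. DUSP4 was called lower in MM.1S and not called in RPMI8226. DUSP2 was called lower, and DUSP6 and DUSP1 higher, in RPMI8226 and were not called in MM.1S, and these differences between the lines were not tested. EGR1 was higher with HS5 cells in both lines at low levels. RPKM gives the share of a gene among all tags, so a change of DUSP5 or DUSP4 per cell cannot be told apart from a change in the other RNA of the cell.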

How the data were processed

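RNA-Seq libraries of MM.1S (3 per condition) and RPMI8226 (2 per condition) were compared between MONO, TSW and CO within each line. Per the submitters' processing notes, reads were mapped to hg38 with Subread and pair-end tags (PETs) on genes were counted with featureCounts; versions and the strand used are not given there. The authors deposited, for each line, a table of 20468 genes, and the values they deposited are on the log2 scale: log2(RPKM + 1) with 0.0001 added. The plan made before the tables were opened assumed plain RPKM; the values were brought back to RPKM first. The smallest step between values gave each library's scale, and from it the PETs per gene, which were checked to be whole numbers within 0.05; depths were 9008962 to 19050745 PETs. For a 2 kb transcript, 1 PET stands for 0.0262 to 0.0555 RPKM, so SPRY2, and EGR1 in MONO, are known only roughly.

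Each line was fitted with limma 3.58.1 in R 4.3.3 (lmFit, contrasts, eBayes with trend) on log2(RPKM + 1), with its 3 conditions in 1 fit and no covariate. Genes with a mean of at least 1 RPKM over the line's libraries were tested. Calls required a fold change over 1.5 and a p below 0.05 after Benjamini-Hochberg adjustment over all tested genes. The script was first tested on simulated data. Tables and promoter searches were made with Python 3.11.15, numpy 2.4.6, pandas 2.3.3 and scipy 1.17.1, and figures with matplotlib 3.10.9. RefSeq identifiers were matched for 20407 of the genes.

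The feedback genes and the other lists were chosen with earlier results of these data known. The lists are other negative regulators, cascade components, ERK and growth factor response genes, MAPK activity score genes, serum response factor and its partners, receptors, ligands, p38 and JNK components, heat shock genes, stromal markers, plasma cell markers, and markers of other blood and vessel cells. All feedback genes are named. Names from each other list were drawn from its 5 called genes with the largest change per comparison, or, where none was called, from the 2 with the highest mean RPKM; of the stromal list also the most abundant gene and THY1. Each feedback gene with a mean of at least 1 RPKM in both lines is set beside its 3 most correlated genes. MYC of RPMI8226, IER3 in TSW, IL6 and CD38 in MM.1S, SPRY4, ERBB2 and DUSP5P1 were named after their values were seen.

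Alternatives were a pseudocount of 0.1, no filter, a filter at 5 RPKM, median-of-ratios scaling, quantile normalization, the replicate number as a block, only the 2 compared conditions in the fit, no trend, no fold change threshold, voom on the recovered PETs, and each library left out in turn. A correction for GC content and length was added after seeing the data.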

Additional observations from a re-analysis of the deposited data

Results flagged for a closer look

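Feedback genes whose libraries lay on opposite sides of MONO in the 2 lines are listed here. Every TSW or CO library of 1 line was above all of its MONO libraries, and every such library of the other line was below. With 2 libraries per condition in RPMI8226, genes without a change can also meet this rule, and its share over all genes was not computed. For DUSP4, the log2 fold change in TSW against MONO was -0.87 in MM.1S and 0.22 in RPMI8226, and in CO against MONO -0.80 and 0.28. For DUSP6, it was -0.47 in MM.1S and 1.97 in RPMI8226 in TSW, and -0.33 and 2.25 in CO. For SPRY1, it was -0.30 and 0.17 in TSW. The RPMI8226 values of DUSP4 and SPRY1 were not called, nor were the MM.1S values of DUSP6 and SPRY1. The difference between the lines was not tested, because their tables were normalized separately.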

How the results depend on the processing

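Of 561 log2 fold changes of feedback genes under alternatives other than leaving out a library, 534 kept their direction and their side of the threshold, 9 were no longer called, 7 were newly called, 8 moved by more than the spread without a test and 3 reversed. Of 447 with a library left out, 429 kept both, 8 were no longer called and 10 reversed. In RPMI8226, leaving out a library leaves 1 in its condition, which is assumed to vary like the others.

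In MM.1S, the number of feedback genes called higher in TSW against MONO was 2, and 1 (only DUSP5) under quantile normalization, with only the 2 conditions in the fit, and under the GC and length correction chosen after seeing the data; with a library left out it was 1 to 2. In CO against MONO it was 2, and 1 under the same alternatives and median-of-ratios scaling, 1 to 2 with a library left out, and 3 (with DUSP1) without a fold change threshold. With no filter both counts stayed at 2, but SPRED1 was not called (adjusted p = 0.0611 and 0.0589) and EGR1 was. The number called lower was 3 in both (DUSP4, DUSP6 and SPRY1) without a fold change threshold. In RPMI8226, the number called higher was 3 in TSW and 3 in CO under a filter at 5 RPKM, where fewer genes were tested, and 4 to 5 in both with a library left out. Without a fold change threshold it was 6 in CO (with DUSP4) and 1 in CO against TSW (DUSP6). SPRED1 of MM.1S had 0.36 in TSW and 0.23 in CO under the GC and length correction. The cause was not tested.

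Reversed under the GC and length correction were DUSP2 in CO against MONO of MM.1S (0.07) and, in CO against TSW of RPMI8226, DUSP4 (-0.01) and SPRED1 (-0.02). With a library left out, values that reversed ranged from -0.12 to 0.19 for SPRED2 in TSW against MONO, -0.22 to 0.05 for DUSP2 and -0.20 to 0.11 for SPRED2 in CO against MONO, and -0.08 to 0.04 for SPRED1 in CO against TSW, all in MM.1S. In CO against TSW of RPMI8226 they were -0.02 to 0.11 for DUSP1 and -0.02 to 0.17 for SPRED2. None of these values was called, and the cause was not tested.

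The replicate block changed no call of a feedback gene, and the counts of all genes called higher and lower were 660 and 421 beside 658 and 422 in TSW against MONO of MM.1S, and 736 and 473 beside 724 and 472 in CO against MONO. Correlations of residuals between libraries of the same number ranged from -0.380 to 0.286 in MM.1S (9 pairs), where not every library correlated best with its own number, and from 0.164 to 0.271 in RPMI8226 (6 pairs, 2 numbers only). The numbers were not treated as pairing. All other alternatives were run. Depth limits SPRY2 in both lines and EGR1 in MONO, where 1 PET changes the value.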
